A study of Drosophila melanogaster with 4 samples.

Results

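The epsilon glutathione transferase genes GstE1 to GstE10 form one gene cluster on chromosome arm 2R of Drosophila melanogaster. They were taken by exact gene symbol in the array's annotation, and 3 of the 10, GstE1, GstE4 and GstE10, had a probe named for that gene alone, out of 11980 named genes and 13891 features in all. Each of the 3 was read by 1 probe. No probe of this annotation listed any of the 10 genes together with another gene, and GstE2, GstE3, GstE5, GstE6, GstE7, GstE8 and GstE9 were not analysed here.

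Glutathione transferases couple the tripeptide glutathione to reactive, electrophilic compounds, which makes those compounds more soluble and marks the conjugates for export. The delta and epsilon classes belong to insects and other arthropods, where they are known for the breakdown of insecticides, plant toxins and aldehydes that arise when membrane lipids are oxidised. Many of their genes lie in tandem arrays of similar copies.

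RNA of larvae with the invadolysin allele 4Y7 was set against RNA of Canton S wild-type larvae on 4 two-colour arrays, 1 mutant and 1 wild-type sample on each. Invadolysin encodes a conserved zinc metalloprotease. The stocks were kept at 25 degrees, and the mutant carried Cy5 on replicates 1 and 4 and Cy3 on replicates 2 and 3. The labels give neither the lesion of 4Y7, the larval age or tissue, nor the strain background of the mutant, so the allele and any difference of strain from Canton S cannot be told apart. An array ratio carries no level of its own, so tissue markers could not be checked for presence. In such bulk RNA, fewer cells of a type and less RNA per cell cannot be told apart either.

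Each value is a log2 ratio, mutant over wild type, where 0 is no difference and 1 is a doubling in the mutant. The direction is only likely, because the array titles name the mutant before the wild type and the labels say nothing more on it. Arrays of opposite dye orientation correlated over probes with a mean Pearson r of 0.217, from which the swapped arrays were taken as already turned, but without replicate 1 that mean was 0.0352. Replicate 4 stood apart, with r of 0.213, 0.0312 and 0.0391 with replicates 1, 2 and 3, while replicates 2 and 3 correlated at 0.651. Replicates 2 and 3 shared a dye orientation, as did replicates 1 and 4. Replicate 1 correlated at 0.401 and 0.397 with replicates 2 and 3, of the opposite orientation. These are correlations across probes within the arrays, and probes are not independent replicates. The Invadolysin probe was at 0.10 ± 0.16 (SD, n = 4; limma adjusted p = 0.761), and whether it lies in the altered part of the gene is not known.

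Over all features, limma called 114 of 13891 at an adjusted p of 0.05, which is 0.821%, with 55 higher and 59 lower. Leaving out replicate 1, 2, 3 or 4 gave 0, 19, 17 and 21 calls. Of the 3 measured epsilon cluster genes 0 passed the threshold in limma, and 1, GstE1, had an unadjusted p under 0.05, as did 19.2% of all features (7.91% with a mean above 0). All 3 had a mean above 0, as did 51.5% of all features. Their median log2 ratio was 0.31, against 0.016 over all features, and the SD of the medians of the 3 genes on each array was 0.38. Without replicate 1 the median was 0.147, and without replicate 2, 3 or 4 it was 0.362, 0.329 and 0.418.

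GstE1, which encodes a cytosolic epsilon enzyme, gave log2 ratios of 1.24, 1.02, 1.08 and -0.11 on replicates 1 to 4. The first 3 arrays thus lay close together above a doubling, and replicate 4 lay just below 0. Its mean was 0.81 ± 0.62 (SD, n = 4), a 1.75-fold ratio with a 95% interval from 1.13 to 2.72. It did not pass over all features, with an unadjusted p of 0.0207 and an adjusted p of 0.181 in limma. On replicates 1, 2 and 3 the single-array ratios were 2.36, 2.03 and 2.11. Among all features of the same array, 98.3%, 94.6% and 94.5% had a lower log2 ratio than GstE1 on those replicates, and 43.3% had a lower one on replicate 4. If the direction were the opposite, these shares would be 1.7%, 5.4%, 5.5% and 56.7%.

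Without replicate 4 the mean of GstE1 was 1.11 ± 0.11 (SD, n = 3; limma adjusted p = 0.0554). Without replicate 1, 2 or 3 it was 0.66, 0.73 and 0.72, with adjusted p of 0.404, 0.522 and 0.449 in limma. The 2 arrays with the mutant in Cy3 gave a mean of 1.05 (limma adjusted p = 0.0393), but 18.5% of all features were called in that fit. Those with the mutant in Cy5, which include replicate 4, gave 0.56 (limma adjusted p = 0.707). By Dixon's gap criterion, the gap to the nearest array over the whole range, replicate 4 stood apart for GstE1, and it stood apart on the low side in 1.68% of all features.

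GstE10, which opens the cluster in the annotated order, gave log2 ratios of 0.81, 0.17, 0.27 and 0.0026 on replicates 1 to 4. Replicate 1 was high and the others lay between 0 and 0.27. All 4 values were above 0, as were those of 14.0% of all features. The mean was 0.31 ± 0.35 (SD, n = 4), or 1.24-fold with a 95% interval from 0.898 to 1.72 (limma adjusted p = 0.42). GstE10 was the middle gene of the 3, so the median above is its value, also without replicate 1, where it was 0.147.

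The annotated spans of GstE10 and GstE1 overlap. The labelling copied double-stranded cDNA with random primers, so both strands carried dye, and a probe inside the shared stretch would read RNA of both genes. The positions of the 2 probes are not given here.

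GstE4, which lies further along the cluster beyond 2 annotated pseudogenes, gave 0.24, 0.39, 0.15 and -0.30 on replicates 1 to 4. As with GstE1, the first 3 arrays were above 0 and replicate 4 was below it, a pattern of signs found in 11.9% of all features. The mean was 0.12 ± 0.30 (SD, n = 4), or 1.09-fold with a 95% interval from 0.801 to 1.48 (limma adjusted p = 0.741). Without replicate 1, 2, 3 or 4 it was 0.082, 0.034, 0.11 and 0.26. The interval leaves room for a change of about the size of the mean of GstE10 in either direction. With the mutant in Cy5 the mean of GstE4 was -0.027, and with the mutant in Cy3 it was 0.27.

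**Figure D1:**
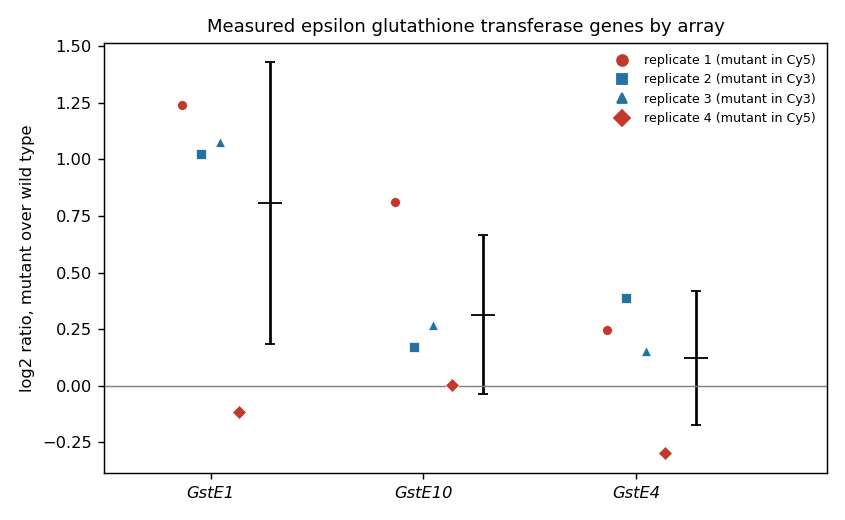
Log2 ratio of mutant over wild type (y axis) on each of the 4 arrays for the 3 measured epsilon cluster genes, with the mean and SD as a bar beside the points; colour gives the dye of the mutant. GstE1 sits between 1.02 and 1.24 on replicates 1 to 3 and at -0.11 on replicate 4, and replicate 4 is the lowest array for each of the 3 genes.

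GstE1 had the highest mean of the 3 genes. The exact permutation test used on their differences cannot give a p under 0.125 with 4 arrays, so it cannot decide whether they differ. The log2 ratio of GstE1 exceeded that of GstE4 on 4 of 4 arrays, by 0.996, 0.634, 0.924 and 0.183 on replicates 1 to 4, with a mean difference of 0.68 ± 0.37 (SD, n = 4). An exact two-sided sign-flip permutation test gave p = 0.125, the smallest that 4 arrays allow (0.375 adjusted over the 3 pairs compared). GstE1 exceeded GstE10 on 3 of 4 arrays, with a mean difference of 0.49 ± 0.45 (exact permutation p = 0.25, adjusted 0.375). GstE10 and GstE4 differed by 0.19 ± 0.33, less than the spread between arrays (exact permutation p = 0.375, adjusted 0.375). Epsilon copies resemble each other in sequence, so shared hybridization, also from the 7 genes not analysed here, is possible for each probe and was not tested.

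On single arrays the order was GstE1, GstE10, GstE4 on replicates 1 and 3, GstE1, GstE4, GstE10 on replicate 2, and GstE10, GstE1, GstE4 on replicate 4. The distance between the highest and the lowest of the 3 log2 ratios was 0.996, 0.852 and 0.924 on replicates 1 to 3 and 0.301 on replicate 4.

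Gene order set the cluster between genes with different values. Directly before GstE10 lies Idgf5, of the chitinase-like imaginal disc growth factors, at 0.08 ± 0.20 (SD, n = 4; limma adjusted p = 0.814), and before that BomS6, a bomanin immune peptide gene, at 1.73 ± 1.34 (limma adjusted p = 0.142). BomS6 was at 1.59, 0.64, 1.05 and 3.66 on replicates 1 to 4. After GstE9 come imd, the adaptor of the Imd immune pathway, at 0.27 ± 0.27 (limma adjusted p = 0.449), and Dp1, which encodes a vigilin-type RNA-binding protein, at -0.96 ± 0.30 (limma adjusted p = 0.0733). None of these 4 neighbours passed the threshold, beside 0.821% of all features called. The 3 further measured bomanin genes beyond BomS6, named after their values were seen, were also above 0 on all 4 arrays, as were 14.0% of all features. Of them BomS2 passed (2.79 ± 0.33, limma adjusted p = 0.014).

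**Figure D2:**
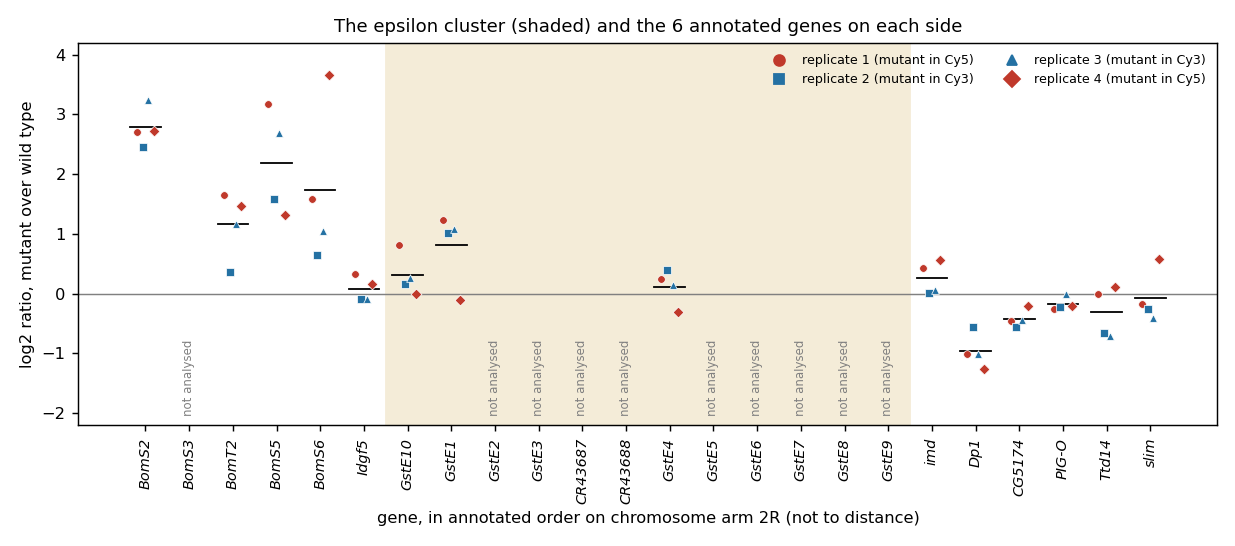
Log2 ratio of mutant over wild type (y axis) for the annotated genes in their order along chromosome arm 2R (x axis, not to distance), with 1 point per array and a line at the mean; the shaded stretch is the epsilon cluster. Means fall from 1.73 at BomS6 to 0.08 at Idgf5, and within the cluster lie at 0.31, 0.81 and 0.12 for GstE10, GstE1 and GstE4.

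Of the 4 epsilon genes that lie outside the cluster, GstE11, GstE12, GstE13 and GstE14, 0 passed the threshold in limma and 0 had an unadjusted p under 0.05. Over all features these shares were 0.821% and 19.2%. The median log2 ratio of the 4 genes was -0.22, and 1 of the 4 had a mean above 0, as did 51.5% of all features. GstE11 gave -0.37, -0.41, -0.12 and -1.68 on replicates 1 to 4 (-0.65 ± 0.70, limma adjusted p = 0.284) and GstE13 gave -0.53, -0.18, -0.09 and -0.86 (-0.41 ± 0.35, limma adjusted p = 0.307). Without replicate 4 the means were -0.30 and -0.27. Both genes were below 0 on all 4 arrays, as were 14.9% of all features, and lowest on replicate 4. GstE14, known as noppera-bo and needed for making the steroid hormone ecdysone, was at -0.016 ± 0.27, and GstE12 at 0.021 ± 0.55.

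Among all 30 measured glutathione transferase genes, GstE1 had rank 5 by mean log2 ratio, behind GstD9, GstD6, GstD3 and GstD2 of the delta class. With the opposite direction its rank would be 26, and with the arrays that carry the mutant in Cy3 turned it would be 23, so the order rests on the direction taken here. In that class 4 of 11 genes rose in limma and 0 fell, beside 0.396% of all features called higher, and the class median was 0.49. GstD7 had a mean of -1.29 ± 0.44 (limma adjusted p = 0.0597). It was below 0 on all 4 arrays, as were 14.9% of all features. GstD9 gave 2.17, 1.88, 2.12 and 1.31 on replicates 1 to 4 (1.87 ± 0.40, limma adjusted p = 0.0343). GstD6 was at 1.71 ± 0.33 and GstD3 at 1.68 ± 0.27 (limma adjusted p = 0.0343 for each), and GstD2 at 1.54 ± 0.46 (0.0487). The lowest of these 4 genes on replicate 4 was GstD2 at 1.06, where GstE1 was at -0.11. The calls of GstD2, GstD3 and GstD6 were lost whichever replicate was left out, and that of GstD9 without replicate 1, 2 or 3. The difference between the epsilon and delta genes was not tested.

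Of 12 measured genes of the omega, sigma, theta, zeta and microsomal classes 0 passed, beside 0.821% of all features called, and their median was -0.17. GstT4, of the theta class, was at 0.58 ± 0.34 (limma adjusted p = 0.182), above 0 on all 4 arrays, and GstO2, of the omega class, at -0.50 ± 0.32 (limma adjusted p = 0.229). In all, 19 of the 30 glutathione transferase genes were lower on replicate 4 than on the mean of replicates 1 to 3, GstE1, GstE4 and GstE10 among them, against 47.5% of all features. Of the 11 delta genes 6 were lower there, and the difference from all features was not tested.

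**Figure D3:**
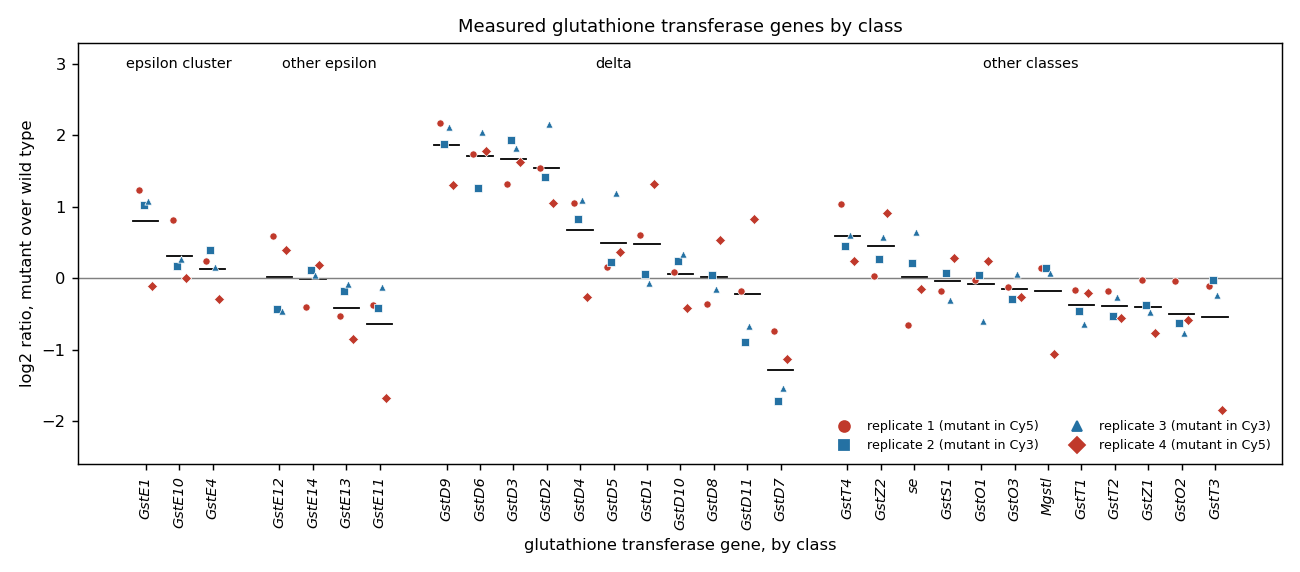
Log2 ratio of mutant over wild type (y axis) on each array for the 30 measured glutathione transferase genes (x axis), grouped by class and sorted by mean within each class, with a line at the mean. GstD9, GstD6, GstD3 and GstD2 lie above 1 on all 4 arrays, GstE1 lies above 1 on replicates 1 to 3, and GstD7 has the lowest mean at -1.29.

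The genes listed for glutathione synthesis and turnover, which include more than the enzymes that make glutathione, had means of the other sign from the cluster genes. Of the 11 measured genes of this list, 0 rose and 1, Ahcy, fell, beside 0.425% of all features called lower. All 11 had a mean below 0, as did 48.5% of all features, and the median was -0.55. The means ran from -1.34 to -0.08, and some of the 11 genes were not below 0 on every array. Ahcy, which encodes the enzyme that breaks down S-adenosylhomocysteine, gave -1.59, -1.15, -1.53 and -0.94 on replicates 1 to 4 (-1.30 ± 0.31, limma adjusted p = 0.0487). Its call was lost whichever replicate was left out, where the adjusted p in limma ran from 0.0554 to 0.217. Gss2, a glutathione synthetase gene, gave -0.91, -1.20, -0.80 and -1.15 (-1.02 ± 0.19) and had an adjusted p of 0.0588 in limma.

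Of 11 measured thioredoxin, glutaredoxin and peroxiredoxin genes 0 passed, beside 0.821% of all features called, and the median was -0.12. Prx6c, a peroxiredoxin gene, was at 2.14 ± 1.11 (limma adjusted p = 0.0742), with 1.41, 1.03, 2.73 and 3.41 on replicates 1 to 4, and Prx6a at -0.67 ± 0.17 (limma adjusted p = 0.109). Of 8 exporter and regulator genes 0 passed, beside 0.821% of all features called, and 7 had a mean above 0, as did 51.5% of all features (median 0.27). Keap1, which encodes the inhibitor of the stress regulator cnc, was at 0.48 ± 0.40 (limma adjusted p = 0.267), and Mrp4, an ABC transporter gene, at 0.38 ± 0.30 (limma adjusted p = 0.323). Of 8 carbonyl detoxification genes 0 passed, beside 0.821% of all features called (median -0.23). Among them CG12766, of the aldo-keto reductases, was at 1.25 ± 0.79 (limma adjusted p = 0.116) and CG3609 at -0.42 ± 0.18 (limma adjusted p = 0.239).

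The 5 genes whose values lay closest to those of GstE1 over the 4 arrays were CG10562, D19B, CG14868, GstD4 and Lip3. Closeness was the root mean square difference of the 4 log2 ratios, taken over 11977 other named genes, and it ran from 0.114 for CG10562 to 0.159 for Lip3, a lipase gene. GstD4, a delta class gene, had rank 4 at 0.157, with 1.05, 0.83, 1.10 and -0.27 on replicates 1 to 4. Its mean was 0.68 ± 0.64 (limma adjusted p = 0.245). The other 10 delta genes ranked from 1637, for GstD5, to 11683, for GstD7, in the same order. With 4 values a gene, such nearness is a description of these arrays.

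Tissue markers moved between arrays as well. Over 21 measured midgut markers, mostly digestive protease genes, the median was 1.44, -0.41, 0.54 and -1.29 on replicates 1 to 4. It was thus highest on replicate 1 and lowest on replicate 4, as were GstE1 and GstE10, while GstE4 was highest on replicate 2. Single midgut markers differed widely on replicate 1, with Jon99Ci at -2.26 and thetaTry at 3.18. Over 6 fat body markers the medians were 0.82, 0.20, -1.55 and -0.022, and over 12 Malpighian tubule markers -0.047, 0.16, 0.41 and -0.17. These 3 tissues carry much of the detoxification of a larva. Muscle markers had medians of -0.62, -0.70, -0.90 and -0.15 over 11 genes, and blood cell markers of -0.038, -0.14, -0.26 and -0.22 over 7. Of these 57 markers 0 passed the threshold in limma, beside 0.821% of all features called. An unadjusted p under 0.05 in limma was found for 18, or 31.6%, against 19.2% of all features. Among the 18 were 8 of the 11 muscle markers, all with a mean below 0. Another 7 were among the 21 midgut markers, 5 with a mean below 0 and 2 with a mean above it. The part of these markers in the values of the epsilon genes was not tested.

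The reported means changed with the way the 4 arrays were combined more than with the scaling. Median centring, scale normalization and quantile normalization left GstE1 between 0.80 and 0.85, GstE10 between 0.31 and 0.35 and GstE4 between 0.12 and 0.15, with 0 calls among the 3. Array weights, which gave replicate 2 a weight of 5.47 and replicate 4 one of 0.232, put GstE1 at 1.01 (limma adjusted p = 0.00307), but 43.8% of all features were called in that fit. If the arrays with the mutant in Cy3 were turned in sign, as for ratios of red over green, GstE1 would be at -0.24 (limma adjusted p = 0.899), GstE10 at 0.094 and GstE4 at -0.15.

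**Figure D4:**
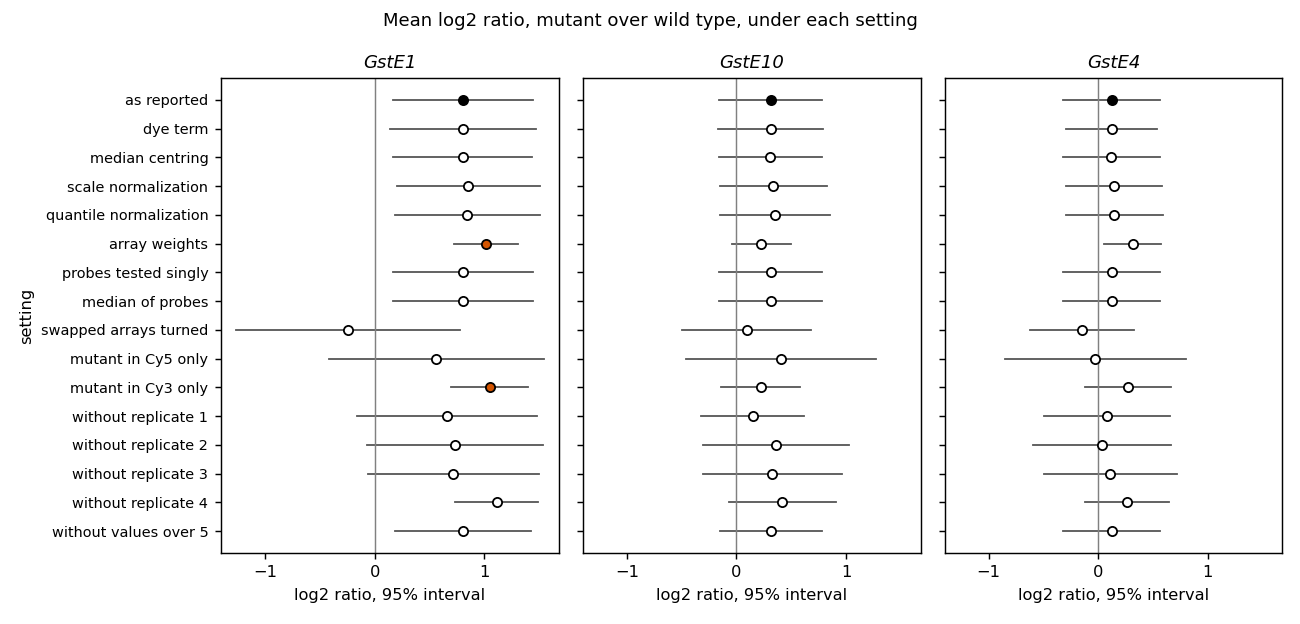
Mean log2 ratio of mutant over wild type with its 95% interval from limma (x axis) for the 3 measured epsilon cluster genes under each setting (y axis); the black point is the value as reported, orange points passed an adjusted p of 0.05 and white points did not. GstE1 lies between 0.80 and 0.85 under the scalings and passed with array weights and with the mutant in Cy3 only; GstE10 and GstE4 passed under none of the settings shown.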

How the data were processed

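The deposited file held 1 log2 ratio for each of 14569 probes on 4 arrays, made by the authors from the 2 channels. How they were scaled, centred and directed within an array, and their log base, is not given here. Base 2 was assumed, since values went down to -13.223, too far for another usual base on a scanner. The column medians lay between -0.0015 and 0.0128. Channel intensities were not used here, so background was not examined, and precision is limited by the small number of arrays, 4. The series calls the arrays biological replicates.

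In the platform annotation, which can be old, 12658 probes had 1 gene symbol, 96 several and 1815 none. Of these, 12012 matched a current gene table (Release 6 plus ISO1 MT), which renewed 0 symbols and served for names and gene order. Probes of 1 gene were averaged, and no filter on low values was set. The mean of each feature was compared with 0 in a two-sided limma fit (limma 3.58.1, R 4.3.3, lmFit and eBayes, 95% intervals), with Benjamini-Hochberg adjustment over 13891 features and a threshold of 0.05. The fit was also run on simulated data with independent arrays of equal quality, so that run says nothing on uneven arrays or on the direction of the ratio. Figures used Python 3.11.15 and matplotlib 3.10.9.

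All members are named, with the 2 genes of smallest p in each pathway list and each gene past the threshold, the 2 annotated genes on each side of the cluster, and the 5 genes nearest to GstE1. The members and lists were chosen with earlier results of these data known. Listed names without a probe of their own were not analysed here.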

Additional observations from a re-analysis of the deposited data

Results flagged for a closer look

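Among 42 genes and list medians examined for a single array far from the other 3, GstE1 and CG10562 stood apart, each on replicate 4. The log2 ratio of GstE1 was -0.11 on that array and 1.02 to 1.24 on the others. That of CG10562, which was chosen for lying close to GstE1, was -0.01 on replicate 4 and 1.07 to 1.27 on the others, so it is no second case. Chance flags about 1 in 20 groups, and 6.44% of all features had such an array, 4.04% with replicate 4 as the lone one.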

How the results depend on the processing

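Alternatives gave calls over all features of 0 with a dye term (3537 at an unadjusted p under 0.05), 0 with the swapped arrays turned (1053), 6079 with array weights, 4 with the mutant in Cy5 only, 2573 with it in Cy3 only, 217 without features over 5 in size, and 0 to 21 without 1 replicate, against 114. The share called higher was 48.2% as reported, 54.5% under scale and 61.1% under quantile normalization, 89.5%, 82.4% and 76.2% without replicates 2, 3 and 4, and 39.2% without features over 5 in size. Of the epsilon cluster genes, 1, GstE1, was called with array weights and 1, GstE1, with the mutant in Cy3 only. The median of the 3 was -0.149 with the swapped arrays turned, a setting that flips the sign of the arrays with the mutant in Cy3. Some named genes kept their sign in that setting, GstE10 at 0.094 and GstD6 at 0.053 among them. There GstE1 was at -0.244, GstE4 -0.149, GstD2 -0.245, GstD3 -0.206, GstD4 -0.287, GstD9 -0.132, GstO2 0.194, Ahcy 0.04, Keap1 -0.25, CG12766 -0.59, CG10562 -0.261, D19B -0.24, CG14868 -0.212, Lip3 -0.239 and Invadolysin -0.035, each the opposite sign. GstE4 was at -0.027 with the mutant in Cy5 only, and Idgf5 at -0.08 in Cy3 only and -0.046 with array weights; the cause was not tested. With the dye term the calls of GstD2, GstD3, GstD6, GstD9 and Ahcy were lost (limma adjusted p = 0.0633, 0.0608, 0.0614, 0.0614 and 0.0633). Each array already pairs 1 mutant with 1 wild-type sample, so the test of the ratio against 0 is the paired one. Within 1 dye orientation there are 2 arrays, so 1 array decides much of each value.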

Other observations

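On replicates 1 to 3, GstE1 was among 99 of 13891 features (0.713%) with a log2 ratio above 1 on each of these arrays. This threshold was chosen after the values of GstE1 were seen, so its own place among the 99 was set in advance. Of the 99, 5 were glutathione transferase genes, GstE1 and the delta genes GstD2, GstD3, GstD6 and GstD9. In all, 30 glutathione transferase genes were measured among the 13891 features, and their share among the 99 was not tested. On replicate 4, 58 of the 99 were again above 1, 30 lay between 0 and 1, and 11 were below 0. Their median on that array was 1.27, against -0.0024 over all features. GstE1 was one of the 11, and the 4 delta genes were among the 58.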
